A study of Homo sapiens with 12 samples.

Results

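The signals of 10 genes that were higher in SaOS-2 clones labelled as transfected with CD99 than in the parental line are described here: NRTN, APELA, TNFRSF9, FABP6, AOX1, DGAT2, RASSF5, KIFAP3, GATA2 and HCP5. They were chosen by these same arrays, as genes with higher signal in Sa/CD99 than in SaOS-2 on at least 1 of 3 days, and they are 10 of the 47 genes that met the thresholds in that direction among 7426 genes tested. SaOS-2 is an osteosarcoma cell line, and CD99 is a cell surface glycoprotein. Total RNA was hybridized to 12 Affymetrix arrays in 6 groups of 2. Parental SaOS-2 was collected as replicates 1 and 2, without transfection, at day 0 and after 7 and 14 days in osteogenic differentiation medium. Sa/CD99 was collected on the same days as 2 stably transfected clones, wt22 and wt36, made by calcium phosphate transfection and selected with neomycin. By the study's methods, the differentiation medium held less serum than the routine medium. Serum, supplements and time in culture therefore cannot be told apart in a change from day 0. No array of a line carrying an empty vector was analysed here, so CD99, selection and the picking of a clone cannot be told apart as sources of a difference between the lines. Whether the parental arrays are of separate cultures is not given in the labels, and the p-values then reflect only the spread between these arrays, which may be technical.

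The genes do not form a pathway. NRTN and APELA encode secreted ligands, one for a receptor complex built on RET and the other for the apelin receptor. TNFRSF9 (4-1BB) encodes a receptor of the tumour necrosis factor family best known from activated T cells. FABP6 encodes the bile acid binding protein of the ileum, AOX1 a molybdenum-containing aldehyde oxidase of the liver, and DGAT2 an enzyme of the last step of triglyceride synthesis. RASSF5 encodes an adaptor that binds Ras and Rap1 and the MST kinases, and KIFAP3 the subunit that joins the kinesin-2 motor to its cargo. GATA2 encodes a zinc finger transcription factor of blood progenitors, and HCP5 is a long non-coding RNA transcribed within the MHC class I region. Osteoblasts arise from mesenchymal progenitors, and ascorbic acid and a phosphate donor in the medium let them lay down and mineralize a collagen matrix.

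Values are log2 signals of the robust multi-array average (RMA), so a difference of 1 is a doubling. A signal of 100, below which the study treated a probe set as lowly expressed, is 6.64 on this scale. Levels were not compared between genes, because each probe set has its own response.

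The label was checked first on CD99 itself, and its probe sets disagreed. One read 11.26 to 11.88 on the SaOS-2 arrays and 6.67 to 8.88 on the arrays labelled Sa/CD99, which is against the label, and the other read 12.29 to 12.66 and 12.32 to 12.74. Which part of the transcript each probe set reads, and whether the transfected sequence holds it, is stated by none of the sources read. The probe sets disagree, so they do not settle the label. Why the first read lower on the arrays labelled Sa/CD99 was not tested. The study also measured CD99 by PCR, which was not used here. Sa/CD99 therefore means the arrays labelled Sa/CD99 throughout. Of 8 osteoblast markers on the array, 7 passed a signal of 100 on some array (COL1A1, COL1A2, RUNX2, SP7, ALPL, IBSP and SPARC) and SPP1 on none. Of these, 6 passed it on all arrays. IBSP was under a signal of 100 in wt36 at days 0 and 7, with 3.26 and 6.44 beside 7.37 and 10.67 in wt22. No leukocyte marker of 7, no ileal enterocyte marker of 7 and no neuronal marker of 5 passed it. Of 5 hepatocyte markers only SERPINA1 passed it. The log2 of the summed signals of that list, most of which is SERPINA1, was 10.02 to 10.33 on SaOS-2 arrays and 8.44 to 10.05 on Sa/CD99 arrays. Of 5 adipocyte markers only PPARG passed it. Parental arrays of a day correlated with r of 0.995 to 0.997 across probe sets and the clones with r of 0.958 to 0.965, and the SD of their difference was 0.12 to 0.14 against 0.39 to 0.42. In bulk RNA, fewer cells with a transcript and less transcript per cell cannot be told apart.

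Because the difference between the lines chose the genes, its values are a description and carry no test. A gene was called when its adjusted p was at most 0.05 over all probe sets tested and its change was at least 1.5-fold. Each SE given below comes from a spread per probe set that all groups share, so it is the same on each day. The clones of a day differed more than the parental arrays, so these SEs may be too small for the clone means. At day 0, 5 of the 10 genes were called higher (APELA, AOX1, HCP5, TNFRSF9 and NRTN), where 0.162% of all tested genes were called higher and 1.08% in either direction. At day 7, 6 were called higher (FABP6, NRTN, RASSF5, TNFRSF9, GATA2 and DGAT2), against 0.512% and 1.68% of all genes. At day 14, 5 were called higher (NRTN, FABP6, GATA2, KIFAP3 and DGAT2), against 0.162% and 1.51%. NRTN was called on all 3 days, 4 genes on 2 days and 5 genes on 1 day. Both Sa/CD99 arrays lay above both SaOS-2 arrays for 9 of the 10 genes at day 0, for 10 at day 7 and for 8 at day 14, where 21.2%, 29.2% and 26.3% of all tested genes did so. The exceptions were KIFAP3 at day 0 and AOX1 and HCP5 at day 14. These counts rest on few arrays. The count at day 0 was 0 without either SaOS-2 array of day 0, 2 without either of day 7 and 1 without either of day 14, and it was 3 without clone wt22 and 1 without clone wt36 of day 0. The count at day 7 was 3 and 2 without SaOS-2 replicates 1 and 2 of day 7 and 3 without clone wt36 of day 7. The count at day 14 was 1 without either SaOS-2 array of day 14, and 3 without either SaOS-2 array of day 0 or without clone wt22 of day 14.

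**Figure D1:**
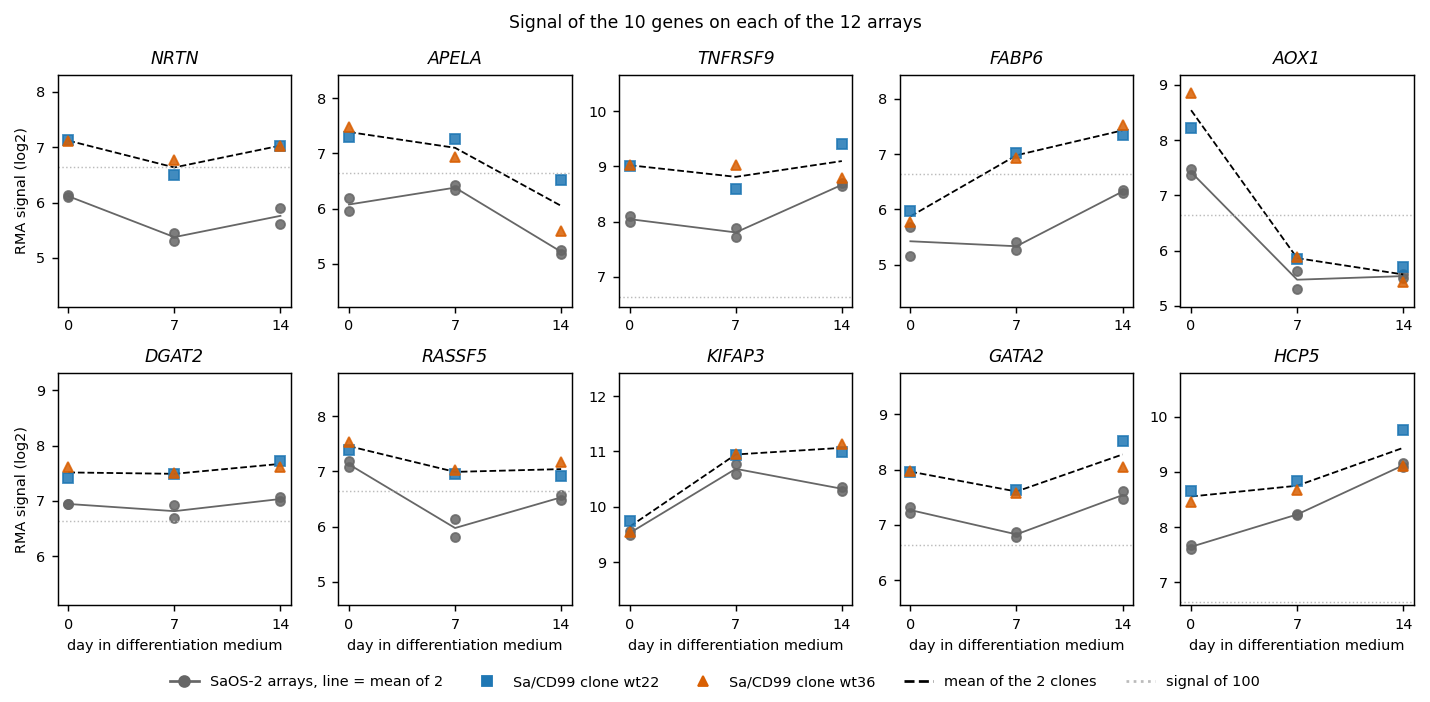
Log2 RMA signal (y axis, of the same span in each panel) of each gene against day in differentiation medium (x axis) on every array, with circles for SaOS-2, squares for clone wt22, triangles for clone wt36, and lines through the means of 2 arrays. NRTN, GATA2 and DGAT2 stay apart on all 3 days, the lines of AOX1 meet at day 14, and those of KIFAP3 part at day 14.

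Near the thresholds, DGAT2 at day 0 fell just outside with a difference of 0.57, under the fold, and GATA2 at day 0 fell just outside on its adjusted p with a difference of 0.70. LINC00944 with 0.59 and RIPOR2 with 0.60 lay just inside at day 0, PRCC with 0.60 and RGS10 with 0.61 at days 7 and 14, and GAB2 with 0.62 lay just outside at day 14. All 10 genes passed the filters on signal and spread. FABP6, APELA and NRTN passed the signal filter only through arrays labelled Sa/CD99 (4, 4 and 5 of 12 arrays over 100), so for them a difference between the lines was favoured by the filter. The filter also favoured changes in time for 3 genes with only 4 arrays over 100: those of AOX1 were all of day 0, those of APELA of days 0 and 7, and those of FABP6 of days 7 and 14. Their time calls reported here were also made by limma in a fit with no filter, with the same changes.

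NRTN, the ligand neurturin, was the one of the 10 called on every day. NRTN read 6.13 and 6.10 on the SaOS-2 arrays at day 0, 5.30 and 5.45 at day 7, and 5.62 and 5.90 at day 14. In clones wt22 and wt36 it read 7.13 and 7.11 at day 0, 6.50 and 6.77 at day 7, and 7.03 and 7.03 at day 14. Every Sa/CD99 array was above all 6 SaOS-2 arrays, whatever the day, and no SaOS-2 array passed a signal of 100. The difference between the lines was 1.0, 1.26 and 1.27 at days 0, 7 and 14 (SE 0.13 each). Over both lines NRTN fell by 0.61 (SE 0.09) from day 0 to day 7 (limma adjusted p = 0.000481), a call lost without SaOS-2 replicate 1 of day 7 (-0.57) or clone wt22 of day 7 (-0.54).

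The promoters of 3 of the genes are printed for contrast. Among the 11 windows matched, that of NRTN had the highest content of G and C (80.0%), that of FABP6 alone held the TATA box letters, and that of TNFRSF9 alone held the NF-kB letters. Each runs 5′ to 3′ on the gene's strand, from 250 bases before to 50 after the start site in RefSeq on GRCh38.p14, and capitals mark the motif matches. NRTN lies on the plus strand at chr19:5804817-5805116, FABP6 on the plus strand at chr5:160229256-160229555 and TNFRSF9 on the minus strand at chr1:7940790-7941089.
NRTN: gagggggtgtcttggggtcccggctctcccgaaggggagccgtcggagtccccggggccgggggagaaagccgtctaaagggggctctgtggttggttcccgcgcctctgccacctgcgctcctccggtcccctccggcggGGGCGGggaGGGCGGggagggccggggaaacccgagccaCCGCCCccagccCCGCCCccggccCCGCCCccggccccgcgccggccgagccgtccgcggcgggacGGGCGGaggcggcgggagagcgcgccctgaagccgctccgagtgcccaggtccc
FABP6: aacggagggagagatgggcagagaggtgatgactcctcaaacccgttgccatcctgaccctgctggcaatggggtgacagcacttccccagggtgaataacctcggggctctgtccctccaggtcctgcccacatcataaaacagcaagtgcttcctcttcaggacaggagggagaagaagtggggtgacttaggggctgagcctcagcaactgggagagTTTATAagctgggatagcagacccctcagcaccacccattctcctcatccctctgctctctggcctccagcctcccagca
TNFRSF9: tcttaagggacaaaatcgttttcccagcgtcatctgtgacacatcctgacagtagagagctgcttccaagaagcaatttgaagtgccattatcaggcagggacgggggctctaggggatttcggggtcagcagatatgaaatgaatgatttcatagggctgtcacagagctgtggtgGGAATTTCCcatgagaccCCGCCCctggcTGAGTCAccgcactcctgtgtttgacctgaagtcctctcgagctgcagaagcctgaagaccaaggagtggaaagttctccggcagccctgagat
The motifs were searched on both strands as the TATA box (TATAAA), the CCAAT box (CCAAT), the GC box (GGGCGG), the AP-1 element (TGAGTCA), an NF-kB element (GGAATTTCC) and the GATA element (AGATAA), and no match in the printed windows overlapped another. Of 35116 promoters of that length, 11.5%, 34.6%, 45%, 4.95%, 0.461% and 10.3% held them, and the median content of G and C was 58.7%. NRTN held 6 GC boxes, FABP6 the TATA box letters once on the strand opposite the gene, and TNFRSF9 the GC box, the AP-1 and the NF-kB letters once each. Promoters matched 9 of the 10 genes, DGAT2 excepted, and no element was common to them all. A match is a description of letters and not a site in use.

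APELA, the hormone also called Elabela, had the largest difference of the 10 genes at day 0. APELA read 5.96 and 6.19 on the SaOS-2 arrays at day 0, 6.34 and 6.42 at day 7, and 5.26 and 5.18 at day 14. Clones wt22 and wt36 read 7.30 and 7.47 at day 0, 7.26 and 6.94 at day 7, and 6.51 and 5.59 at day 14. The groups did not overlap on any day, but at day 14 only wt22 was clearly apart, with the clones 0.92 from each other. Sa/CD99 minus SaOS-2 was 1.31, 0.72 and 0.83 (SE 0.25 each). Over both lines APELA fell by 1.10 (SE 0.18, 2.15-fold) from day 7 to day 14 (limma adjusted p = 0.000786), while its mean change from day 0 to day 7 was 0.01 (SE 0.18).

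TNFRSF9, the costimulatory receptor, was apart on days 0 and 7 and less so at day 14. TNFRSF9 read 7.99 and 8.10 on the SaOS-2 arrays at day 0, 7.89 and 7.72 at day 7, and 8.69 and 8.64 at day 14. Its signal in wt22 and wt36 was 9.01 and 9.03 at day 0, 8.59 and 9.03 at day 7, and 9.40 and 8.79 at day 14. The groups did not overlap on any day, and at day 14 wt36 was only 0.11 above the higher SaOS-2 array. The lines differed by 0.97, 1.01 and 0.43 (SE 0.2 each), a second probe set gave 0.73, 0.46 and 0.46, and the last, never over a signal of 100, gave 0.33, 0.23 and 0.25. From day 7 to day 14 the mean change over both lines was 0.57 (SE 0.14, limma adjusted p = 0.00635), just under the 1.5-fold threshold, with 0.86 in SaOS-2 and 0.28 in Sa/CD99. It passed that threshold without SaOS-2 replicate 1 of day 7, clone wt36 of day 7 or clone wt36 of day 14, with 0.61, 0.68 and 0.72. No leukocyte marker reached a signal of 100 on any array, PTPRC and CD3E among them.

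FABP6, the bile acid carrier, had the widest gap of any of the 10 genes, at day 7. FABP6 read 5.16 and 5.69 on the SaOS-2 arrays at day 0, 5.41 and 5.26 at day 7, and 6.30 and 6.35 at day 14. On the arrays of wt22 and wt36 it was 5.98 and 5.77 at day 0, 7.03 and 6.93 at day 7, and 7.34 and 7.52 at day 14. At day 0 the lower clone was only 0.08 above the higher SaOS-2 array, and at day 7 the gap was 1.52. The difference between the lines was 0.45, 1.64 and 1.10 (SE 0.17 each). Over both lines FABP6 rose by 1.23 (SE 0.12, 2.34-fold) from day 0 to day 14 (limma adjusted p = 7.62e-05) and by 0.72 (SE 0.12) from day 7 to day 14 (limma adjusted p = 0.000833). From day 0 to day 7 the mean changed by -0.09 in SaOS-2 and by 1.10 in Sa/CD99, and from day 7 to day 14 by 0.99 and 0.45. The fitted interaction of line and day, which is built from the differences that chose the gene, was not called for either interval (1.19 and -0.54, SE 0.23, limma adjusted p = 0.74 and 1). The pattern rests on 1 of 3 probe sets. The other 2 never passed a signal of 100, and the second gave differences of 0.29, 0.26 and -0.16 and time changes that were not called.

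AOX1, the aldehyde oxidase, was the gene with the largest change over time. AOX1 read 7.37 and 7.47 on the SaOS-2 arrays at day 0, 5.64 and 5.31 at day 7, and 5.57 and 5.51 at day 14. In clones wt22 and wt36 it read 8.22 and 8.86 at day 0, 5.85 and 5.88 at day 7, and 5.70 and 5.44 at day 14. All 4 arrays of day 0 were high and the other 8 were under a signal of 100, and at day 14 the lines overlapped. Over both lines AOX1 fell by 2.31 (SE 0.14, 4.97-fold) from day 0 to day 7 (limma adjusted p = 5.74e-06) and fell by 2.43 (SE 0.14) from day 0 to day 14 (limma adjusted p = 5.33e-06). Sa/CD99 minus SaOS-2 was 1.11, 0.39 and 0.03 (SE 0.2 each), and a second probe set gave 1.24, 1.04 and 0.53.

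DGAT2, the triglyceride enzyme, had differences of nearly the same size on each day. DGAT2 read 6.94 and 6.95 on the SaOS-2 arrays at day 0, 6.93 and 6.70 at day 7, and 7.07 and 7.00 at day 14. Clones wt22 and wt36 read 7.42 and 7.61 at day 0, 7.48 and 7.50 at day 7, and 7.72 and 7.62 at day 14. Every Sa/CD99 array was above every SaOS-2 array. The lines differed by 0.57, 0.68 and 0.64 (SE 0.11 each), and a second probe set gave 0.52, 0.57 and 0.56. No change over time was called, the largest being 0.20 (SE 0.08) from day 7 to day 14 (limma adjusted p = 0.043).

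RASSF5, the Ras and Rap1 effector, was farthest apart at day 7, when SaOS-2 was at its lowest, on the probe set that stood for it. RASSF5 read 7.18 and 7.07 on the SaOS-2 arrays at day 0, 6.13 and 5.82 at day 7, and 6.58 and 6.48 at day 14. Its signal in wt22 and wt36 was 7.38 and 7.53 at day 0, 6.96 and 7.02 at day 7, and 6.91 and 7.17 at day 14. The groups did not overlap on any day. The difference between the lines was 0.33, 1.02 and 0.52 (SE 0.13 each), and a second probe set, never over a signal of 100, gave 0.12, 0.45 and 0.72. Over both lines RASSF5 fell by 0.81 (SE 0.09, 1.75-fold) from day 0 to day 7 (limma adjusted p = 0.000147), with mean changes of -1.16 in SaOS-2 and -0.47 in Sa/CD99. The fitted interaction of line and day for that interval, built from the differences that chose the gene, was not called (0.69, SE 0.19, limma adjusted p = 0.999).

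KIFAP3, the kinesin-2 subunit, was alike in the lines at day 0. KIFAP3 read 9.56 and 9.49 on the SaOS-2 arrays at day 0, 10.77 and 10.60 at day 7, and 10.36 and 10.29 at day 14. On the arrays of wt22 and wt36 it was 9.74 and 9.54 at day 0, 10.93 and 10.96 at day 7, and 10.99 and 11.14 at day 14. The groups overlapped at day 0, were 0.16 apart at day 7 and 0.64 apart at day 14. Sa/CD99 minus SaOS-2 was 0.11, 0.26 and 0.74 (SE 0.11 each). Over both lines KIFAP3 rose by 1.23 (SE 0.08, 2.35-fold) from day 0 to day 7 (limma adjusted p = 6.66e-06). From day 7 to day 14 its mean changed by -0.36 in SaOS-2 and by 0.13 in Sa/CD99.

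GATA2, the transcription factor, was apart by a similar amount on each day. GATA2 read 7.22 and 7.32 on the SaOS-2 arrays at day 0, 6.78 and 6.88 at day 7, and 7.47 and 7.61 at day 14. In clones wt22 and wt36 it read 7.96 and 7.97 at day 0, 7.64 and 7.57 at day 7, and 8.51 and 8.04 at day 14. The groups did not overlap on any day, and the clones were closest at day 0 and farthest apart at day 14. The lines differed by 0.70, 0.77 and 0.74 (SE 0.14 each), and 2 further probe sets, which did not pass the filters, gave 0.22, 0.40 and 0.43 and 0.02, 0.10 and -0.01. Over both lines GATA2 rose by 0.69 (SE 0.1, 1.61-fold) from day 7 to day 14 (limma adjusted p = 0.000522), and by 0.57, under the fold, without clone wt22 of day 14.

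HCP5, the long non-coding RNA, read higher with time in both lines, and they differed most at day 0, the only day on which it was called. HCP5 read 7.68 and 7.61 on the SaOS-2 arrays at day 0, 8.24 and 8.22 at day 7, and 9.08 and 9.16 at day 14. Clones wt22 and wt36 read 8.65 and 8.46 at day 0, 8.83 and 8.67 at day 7, and 9.76 and 9.11 at day 14. At day 14 wt36 lay between the SaOS-2 arrays and wt22 above them. The difference between the lines was 0.91, 0.52 and 0.32 (SE 0.18 each). By clone, the difference from the SaOS-2 mean was 1.01, 0.60 and 0.64 in wt22 and 0.81, 0.44 and -0.01 in wt36. The fitted interaction of line and day, built from the differences that chose the gene, was not called from day 0 to day 14 (-0.60, SE 0.26, limma adjusted p = 0.999). Over both lines HCP5 rose by 1.18 (SE 0.13, 2.26-fold) from day 0 to day 14 (limma adjusted p = 0.00016) and by 0.79 (SE 0.13) from day 7 to day 14 (limma adjusted p = 0.00085).

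**Figure D2:**
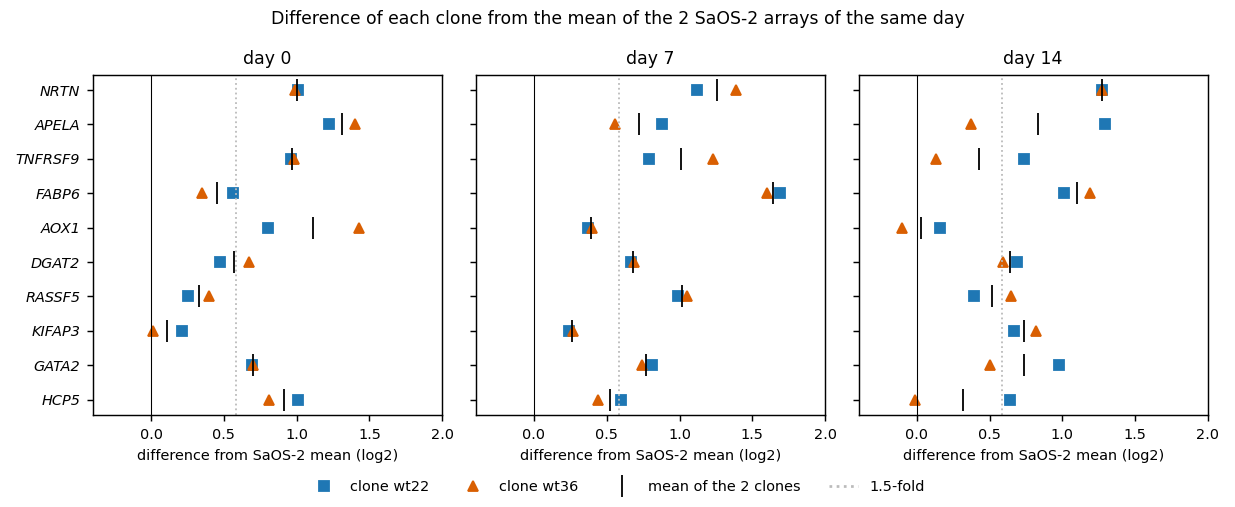
Signal of clone wt22 (squares) and clone wt36 (triangles) minus the mean of the 2 SaOS-2 arrays of the same day, on the log2 scale (x axis), for each gene (y axis) on each day, with a bar for the mean of the clones and a dotted line at 1.5-fold. The clones lie closest together for NRTN at day 14 and farthest apart for APELA at day 14, with 1.29 in wt22 and 0.37 in wt36.

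The clones were then set beside each other. For 10 genes on 3 days, both clones were above the SaOS-2 mean of that day in 28 of 30 cases, where 29.2%, 35.2% and 32.3% of all tested genes were at days 0, 7 and 14, and the exceptions were wt36 at day 14 for AOX1 (-0.10) and HCP5 (-0.01). Those values chose the genes, and both clones are read against the same SaOS-2 arrays, so the count is a description. The difference between clones, wt22 minus wt36 as a mean over the days, was largest for APELA with 0.36 and smallest for KIFAP3 with 0.01. It was called for 0 of the 10 genes with limma, against 6.14% of all tested genes, and 1 gene had an unadjusted p under 0.05: HCP5, with 0.34 and an adjusted p of 0.0384. Without either Sa/CD99 array of day 0, APELA was called with 0.62. The choice of the genes used the spread within groups, of which the clones are a part, so small differences between clones were favoured and nothing is read from that count.

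Changes over time were taken as the mean over both lines, which does not enter the difference between the lines. The spread within groups enters both, so these p-values lean low. From day 0 to day 7, 1 of the 10 genes rose (KIFAP3), where 9.53% of all genes rose, and 3 fell (AOX1, RASSF5 and NRTN), where 8.21% fell. From day 0 to day 14, 3 rose (FABP6, HCP5 and KIFAP3) and 2 fell (AOX1 and APELA), against 7.31% and 9.39% of all genes. From day 7 to day 14, 3 rose (HCP5, FABP6 and GATA2) and 1 fell (APELA), against 3.49% and 12.9%. The 10 genes thus had no common direction in time. TNFRSF9 and DGAT2 were called in none of these comparisons.

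**Figure D3:**
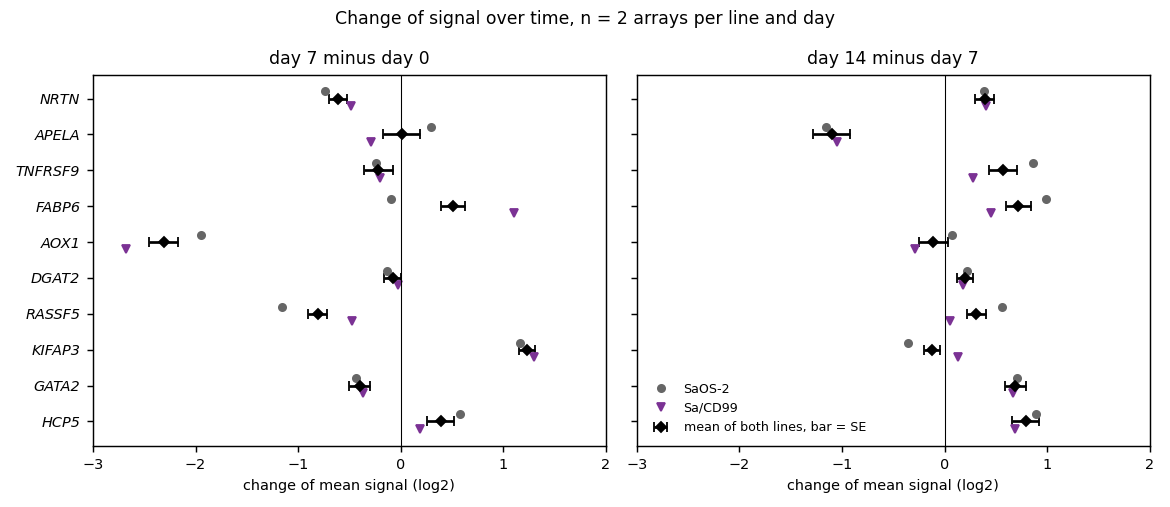
Change of the mean log2 signal (x axis) from day 0 to day 7 and from day 7 to day 14 for each gene (y axis), with circles for SaOS-2, triangles for Sa/CD99 (2 arrays per line and day) and diamonds for the mean of both lines with its SE as bars. In the first interval AOX1 has changes of -1.95 in SaOS-2 and -2.68 in Sa/CD99 and KIFAP3 of 1.16 and 1.30, while FABP6 has -0.09 and 1.10 in the first interval and 0.99 and 0.45 in the second.

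Genes known to act with the 10 were read from lists of ligands, receptors, cofactors, paralogues and neighbours in function. The lists hold 115 genes, of which 106 had a probe set of their own and 45 were tested. Between the lines, 0 of the 45 were called on any day with limma, beside 1.08%, 1.68% and 1.51% of all tested genes at days 0, 7 and 14. With shares so small, 0 of 45 is near that of all genes and nothing is read from it. With limma 6, 10 and 6 of the 45 had an unadjusted p under 0.05, as did 11.2%, 21.1% and 16.5% of all tested genes. The median difference of the 45 was 0.05, 0.09 and 0.06, beside 0.01, 0.01 and 0.00 for all genes. The lowest values were those of TRAF3, a signalling adaptor of the receptor family, with -0.67 and -0.69 at days 0 and 7, and IFT80, a cilium transport protein, with -0.88 at day 14. TRAF3 was called at day 7 under a replicate block, on all 3 days without clone wt22 of day 14, and at days 0 and 7 without clone wt36 of day 14. MGLL, a lipase, was called at day 7 with -0.62 when any 1 Sa/CD99 array of day 0 or day 14 was left out. The highest values were 0.51 for STK3 (an MST kinase), 0.45 for TNFRSF10B (a death receptor) and 0.40 for APLN (apelin).

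Receptors of the ligands were at low signal with an exception. GFRA1, GFRA2 and RET, which bind and transmit neurturin and its relatives, stayed under a signal of 100 on all 12 arrays, with differences between the lines of -0.22 to 0.13. NCAM1, an alternative receptor of that ligand family, was over 100 on all 12 arrays and differed by -0.31, -0.26 and -0.28 at days 0, 7 and 14 (SE 0.09 each), which limma did not call (adjusted p = 0.162, 0.152 and 0.17). APLNR, the receptor of APELA, stayed under it too, with 0.05, 0.12 and 0.10. TNFSF9, the ligand of TNFRSF9, was measured on every array and differed between the lines by 0.09, 0.12 and -0.05. DGAT1 (-0.02, 0.01 and -0.17), STK4 (0.00, -0.14 and 0.00), KIF3B (-0.20, -0.22 and -0.16), HLA-B (0.22, 0.01 and 0.11) and the GATA2 cofactor ZFPM2, never over 100 (-0.10, -0.03 and 0.07), differed by 0.22 or less in size. The median size over all tested genes was 0.12, 0.18 and 0.15. KIF3A, the motor that KIFAP3 binds, was over 100 on 3 arrays and differed by -0.08, -0.19 and -0.33.

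**Figure D4:**
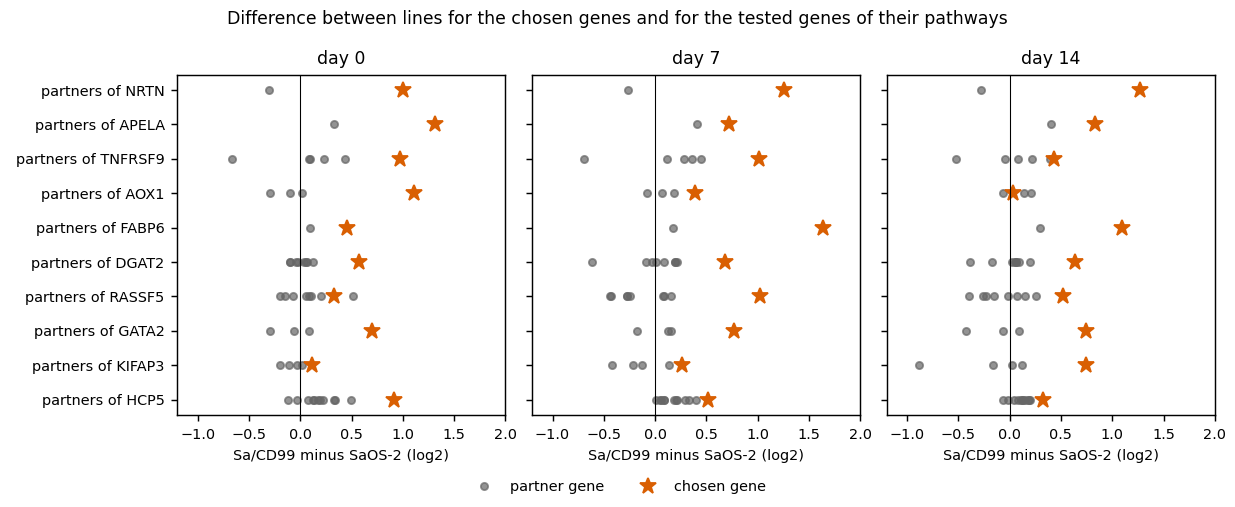
Difference of Sa/CD99 from SaOS-2 (x axis, log2 of the mean of 2 arrays each) on each day for every tested gene of the lists (circles) beside the gene each list was made for (stars, chosen by this same difference), with a row per list. The 45 circles lie between -0.88 and 0.51.

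Over time, 5 of the 45 listed genes rose and 3 fell from day 0 to day 7, where 9.53% of all genes rose and 8.21% fell. From day 0 to day 14, 3 rose and 3 fell, beside 7.31% and 9.39%, and from day 7 to day 14 2 rose and 4 fell, beside 3.49% and 12.9%. These shares are near those of all genes, and the values that follow are a description of the called ones. KIT, a growth factor receptor and GATA2 target, fell from day 0 to days 7 and 14, with changes of -1.46 and -2.19 (limma adjusted p = 0.0025 and 0.00039). TNFSF9 fell over the same intervals, with changes of -1.39 and -1.10 (limma adjusted p = 0.000362 and 0.00153). PSMB9, an immunoproteasome subunit encoded in the MHC region as HCP5 is, rose by 0.82 and 1.21 (limma adjusted p = 3.31e-05 and 6.19e-06), and PSMB8 by 0.92 from day 0 to day 14. IFT80 rose by 0.93 and then fell by 1.28 from day 7 to day 14, and RASSF8, a relative of RASSF5, rose by 0.94 and then fell by 1.15. LPIN1, which makes the diacylglycerol that DGAT2 uses, rose by 0.84 and then fell by 0.78, and TNFRSF21 rose by 0.72 and 0.76 from day 0. RASSF1 fell by 0.71 from day 0 to day 7, GPAM fell by 0.88 from day 0 to day 14, and from day 7 to day 14 HRAS rose by 0.66 and KIF3C by 0.59, while KIT fell by 0.73. The count from day 7 to day 14 was 11 without clone wt36 of day 14.

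The 2 tested genes closest to each of the 10 in pattern were found by Pearson's r over the 12 arrays, which share lines and days, so r is a description. For NRTN they were PFDN2 and MPC2 (r = 0.97 each), for APELA CHTOP (0.933) and DUSP10 (0.896), and for TNFRSF9 C1orf74 (0.946) and SLC25A44 (0.941). For FABP6 they were FLAD1 (0.949) and ARPC1B (0.94), for AOX1 AP1M2 (0.989) and MAP2K1 (0.972), and for DGAT2 MRPS14 (0.958) and ZC3HC1 (0.957). For RASSF5 they were DESI1 (0.957) and CNIH4 (0.939), for KIFAP3 SPOCK1 (0.984) and NSDHL (0.969), for GATA2 CBX2 (0.979) and ISOC2 (0.975), and for HCP5 PTP4A3 (0.97) and CHDH (0.959). None of these 20 was itself among the 10. Among the 10, the closest pair was TNFRSF9 and GATA2 (r = 0.92) and the most opposed AOX1 and KIFAP3 (r = -0.84).

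In position, RASSF5 and KIFAP3 lie on the long arm of chromosome 1 (1q) and the other 8 genes elsewhere. Up to 5 tested genes on either side of each gene gave 100 neighbours, of which 64, 63 and 60 had a difference above 0 at days 0, 7 and 14, where 51.6%, 52.2% and 50.5% of all genes did. Around RASSF5 10, 9 and 8 of 10 neighbours were above 0 with medians of 0.30, 0.24 and 0.20, and around KIFAP3 9, 9 and 8 of 10 with medians of 0.29, 0.29 and 0.30. Around each of the other genes the median lay between -0.15 and 0.18. Neighbours called with limma were EIF2D beside RASSF5, a translation factor higher by 0.67 at day 7 (adjusted p = 0.0208), and SERPINH1 beside DGAT2, the collagen chaperone, which differed by -1.25 and -1.82 at days 7 and 14 (adjusted p = 0.016 and 0.0037).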

How the data were processed

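Total RNA of 12 samples was profiled on Affymetrix HG-U133 Plus 2.0 arrays. The authors deposited log2 signals that RMA had background-corrected, quantile-normalized over all arrays and summarised per probe set. The submitters' processing notes name RMA and affy without versions. Array medians were 5.25 to 5.31. As arrays give no counts, the number of arrays limits the precision.

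Groups came from the labels. After the study's filters, which dropped probe sets not over 100 in 9 or more of 12 arrays and those with an interquartile range no larger than the median, 12894 of 54613 probe sets other than controls were tested. Probe sets were named from the platform's annotation through gene IDs, 41091 with 1 gene, 1801 with several and 11721 with none, and 41037 of the first were matched to RefSeq while 54 kept the array's name. The probe set with the highest mean stood for a gene. A mean per group was fitted in limma 3.58.1 under R 4.3.3 (lmFit, eBayes; degrees of freedom 6 residual and 3.183 prior), with a term for the clone (5 residual degrees of freedom) where the clones were compared, and p-values were adjusted by Benjamini-Hochberg over the 12894. On simulated data, 24 of 50 probe sets changed 1.5-fold and 48 of 50 changed 2-fold were called for the mean change from day 0 to day 7.

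The genes and lists were chosen with earlier results of these data known. The text names the 10 genes, the called genes of each list (up to 4) with fixed direct partners, the 2 genes closest in pattern, called neighbours and genes near the thresholds. Other listed genes named for the lowest or highest value were chosen after values were seen. A clone number marks 1 line on each day, so it pairs those arrays, and the clone differences correlated between days with r of 0.32 to 0.63 across probe sets. For the parental numbers, r was -0.05 to 0.24. Alternatives were other filters, scalings, blocks, probe sets and array weights, and leaving out each array.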

Additional observations from a re-analysis of the deposited data

Results flagged for a closer look

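For APELA and KIFAP3, every array of SaOS-2 moved one way between days and every array of Sa/CD99 the other way. How many of all tested genes did so was not counted, so nothing is read from the pattern. For APELA, from day 0 to day 7, the mean changed by 0.30 in SaOS-2 and by -0.29 in Sa/CD99 on the log2 scale. In clone wt22 APELA went only from 7.30 to 7.26. For KIFAP3, from day 7 to day 14, it changed by -0.36 in SaOS-2 and by 0.13 in Sa/CD99. The fitted interaction of line and day was not called for either with limma (-0.59, SE 0.36, adjusted p = 0.999 and 0.49, SE 0.15, adjusted p = 1), and it is built from the same differences that chose the genes.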

How the results depend on the processing

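The number of genes called higher in Sa/CD99 moved most. At day 0, where 5 were called, it was 3 with no filter on signal or spread, with the signal filter only, with probe sets of 1 gene only, with the tested probe sets quantile-normalized anew, and with each gene's second probe set. With the second probe set it was 1 at day 7 and 2 at day 14, and FABP6 at day 14 turned to -0.16. With the arrays of that day alone it was 0, 1 and 0 at days 0, 7 and 14, where 4 arrays leave few degrees of freedom. Over single arrays left out it ran from 0 to 6, from 2 to 7 and from 1 to 7. Under the replicate block, with clone and parental numbers as paired terms, it was 6, 6 and 5. For changes over time, 7 genes were called from day 0 to day 7 and 8 from day 7 to day 14 without the fold threshold, and 7 from day 7 to day 14 after that normalization, where NRTN, TNFRSF9 and RASSF5 were added with 0.82, 0.65 and 0.60. Between clones, 1 was called without the fold threshold, and 0 to 1 with arrays left out. Listed genes called between the lines went from 0 to 1 at day 7 under the replicate block (TRAF3) and with the second probe set (SAV1), and ran from 0 to 1, 0 to 2 and 0 to 1 over arrays left out. No other call counted here was changed by the replicate block beyond 1.5 times. Of the values of single genes under alternatives, 701 of 720 between the lines stayed within the larger SD of the groups compared, whether or not the gene stayed called. Other filters leave those differences as they are, and leaving out 1 of 2 arrays cannot move a mean beyond that SD. That count was thus largely fixed in advance, and nothing is read from it. Over time, 675 of 690 stayed called or stayed not called. Other filters leave the time changes as they are too, and fits without 1 array share the other arrays. Nothing is read from that count either. The causes of the shifts under alternatives were not tested. In simulated data, 17 of 50 differences planted at 1.5-fold and 40 of 50 planted at 2-fold were called between the lines at day 0. A call needs an estimate of at least 1.5-fold, so changes planted at that fold are often missed with any number of arrays. Unlike the arrays here, simulated clones and parental arrays had the same spread. FABP6, APELA, AOX1 and NRTN were at or under a signal of 100 on 8, 8, 8 and 7 of 12 arrays.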

Other observations

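The long arm of chromosome 1 recurred around the 10 genes, as seen after the values were known and described here with no test. RASSF5 and KIFAP3 lie on it, as did 7 of the 37 other genes called higher, while 4.92% of 7422 placed genes did. Of the 20 genes closest in pattern to the 10, 9 lay on it (PFDN2, MPC2, FLAD1, CHTOP, DUSP10, C1orf74, SLC25A44, CNIH4 and MRPS14), among them a gene for NRTN, FABP6, APELA, TNFRSF9 and DGAT2, none of which lies there. The 10 were chosen as higher in Sa/CD99 and r was taken over the same arrays. Genes close in pattern thus tend to be higher there, as 1q genes were, and nothing is read from that count. The 365 tested genes of 1q had a median difference between the lines of 0.21, 0.25 and 0.23 at days 0, 7 and 14, beside 0.01, 0.01 and 0.00 for all genes, and 83.6%, 81.9% and 79.5% of them were above 0. By clone the 1q medians were 0.18, 0.19 and 0.21 in wt22 and 0.22, 0.28 and 0.23 in wt36, beside 0.02, -0.01 and 0.01 and 0.00, 0.03 and 0.00 for all tested genes, and both are read against the same SaOS-2 arrays of each day, so they are not independent. Of the 365, 1, 6 and 3 were called higher and none lower with limma.

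RASSF2, a relative of RASSF5 that stayed under a signal of 100 on all 12 arrays and so was not tested, read higher in Sa/CD99 by 1.05, 0.73 and 0.64 on the log2 scale at days 0, 7 and 14. RASSF2 was chosen after its values were seen. Its Sa/CD99 means were 5.53, 5.04 and 5.37, while its highest array read 6.18. The clones thus lay apart on at least 1 day, and the differences may rest largely on 1 clone.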
